A study of Mus musculus with 8 samples.

Results

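The sorted populations called cluster 1 and cluster 4, which are 2 of the 8 RNA-seq libraries of mouse bone marrow in the series, were compared gene by gene. The study divided bone marrow mesenchymal stromal cells into 7 clusters by single-cell RNA-seq and then sorted each cluster with antibodies for bulk RNA-seq, so the comparison asks which genes differ between a population sorted by Sca-1 and one sorted by CD54 from the same tissue. The cells came from wild type mice, labelled as strain C57BL/6J at 6 weeks after birth (C57BL/6JJcl in the methods of the study, which give a wider range of ages), and no treatment is named. Per the gating plots of the study, both populations were negative for CD31, CD45 and TER119 (endothelial, leukocyte and erythroid surface proteins) and for CD24. Cluster 1 was then taken as Sca-1 positive and CD39 positive, and cluster 4 as Ly-6C negative and CD54 positive. The number of mice behind a library is not given in the sources used here, and each population had 1 library, so that the differences below have no replicate check and carry no p-value. The labels describe RNA from crushed marrow and not from sorted cells, and the genes of the sort markers were therefore examined first.

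The counts summed to 24205863 in cluster 1 and 32549319 in cluster 4. Levels are given as RPKM (reads per kilobase of exon, relative to the library total), after scaling of the library totals by TMM (trimmed mean of M values, which sets the bulk of the genes equal between libraries). A gene was kept with RPKM above 2 and 50 or more counts in the same library, in at least 1 of both, which left 9999 of the 49315 genes. Of these, 8817 passed in both libraries, 581 in cluster 1 alone and 601 in cluster 4 alone. The log2 ratio is that of RPKM + 1, cluster 1 over cluster 4, and is positive where cluster 1 was higher. Ratios of RPKM are given with a 95% exact binomial interval, which covers counting error only and not the variation between mice or sorts. The words higher and lower are used of genes more than 2-fold apart on the log2 ratio scale, and values are given for the others. Within 2-fold and past 2-fold refer to the same scale. The added 1 draws ratios of low levels together, so that a gene called within 2-fold can exceed 2-fold by RPKM. An example is Ptch1, which is 3.06-fold apart by RPKM.

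Bone marrow stroma contains several kinds of mesenchymal cell. Reticular cells around the sinusoids secrete Cxcl12 and Kit ligand, which retain haematopoietic stem cells, and express the leptin receptor and adiponectin as cells primed towards adipocytes. Fibroblasts around arteries and in connective tissue carry Sca-1 (encoded by Ly6a), CD34 and Dpp4 and secrete collagens and microfibril proteins, whereas osteoblasts and chondrocytes at the bone surface, the growth plate and the joint deposit mineralised and cartilage matrix.

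The genes that name both populations were compared first. Ly6a (chr15:74994877-74998031, GRCm38) was at RPKM 492 in cluster 1 against 421 in cluster 4, which gives 1.17 as the ratio (1.14 to 1.19). The RNA for Sca-1 thus hardly separated the libraries, and the highest of the 7 sorted libraries was cluster 3 (917). Abca8a, a lipid transporter of the ABC family, had RPKM 30.9 in cluster 1 and 17.7 in cluster 4, and was highest in cluster 1 among the 7 libraries. Cxcl12 (chr6:117168535-117181367), the chemokine that holds haematopoietic cells in the niche, had 27.9 and 136, so that it was 4.87-fold higher in cluster 4 (4.75 to 5.004). Adipoq (chr16:23146536-23158028), the adipokine adiponectin, had 2.77 and 28.9, a ratio of 10.4 towards cluster 4 (8.59 to 12.8). Both were at their highest in cluster 4 among the 7 libraries. The pair was chosen with the levels of these genes known, so that the values describe the label and are not evidence for it.

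Of the genes for the proteins used in the sorts, Icam1, which encodes CD54, followed the gate. Its RPKM was 61.7 in cluster 1 and 231 in cluster 4, with a log2 ratio of -1.89. Entpd1, which encodes CD39, had 7.13 and 7.17 and did not separate the CD39-sorted cluster 1 from cluster 4. Ly-6C is encoded by a pair of similar genes, between which reads may have been split. Ly6c1 had 176 and 119, and Ly6c2, which is abundant in monocytes, had 34.3 and 67.97. Both genes lay within 2-fold and had RNA in cluster 4, which was sorted as Ly-6C negative. Il1r2 had 45.6 and 74.9, and encodes CD121b, a candidate surface marker of the study that is not in the gates given above. Cd24a had 46.4 and 51.8, although both populations were sorted as CD24 negative. The stromal receptor gene Pdgfra had 23.4 and 19.3. Ptprc, which encodes CD45, was low in both (2.43 and 2.70), as was Pecam1, which encodes CD31 (2.27 and 1.47).

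More than 2-fold differences were more frequent towards cluster 4 than towards cluster 1. Of the 9999 genes, 152 (1.52%) were higher in cluster 1 and 470 (4.7%) were higher in cluster 4, whereas 9377 lay within 2-fold. At a 4-fold threshold the numbers were 21 and 89. This split depends on the scaling: without TMM factors, with the total count alone, 272 genes favoured cluster 1 and 337 favoured cluster 4, and the median log2 ratio of all genes kept moved by 0.20, from -0.04. The level filter was passed in cluster 1 alone by 67 of the 152 and in cluster 4 alone by 154 of the 470, so that the filter favoured these directions. The median RPKM of the genes higher in cluster 4 was 18.7 there and 5.60 in cluster 1, and that of the genes higher in cluster 1 was 9.97 there and 3.02 in cluster 4. On the plot of the levels, the points furthest from the diagonal lie on the side of cluster 4.

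**Figure D1:**
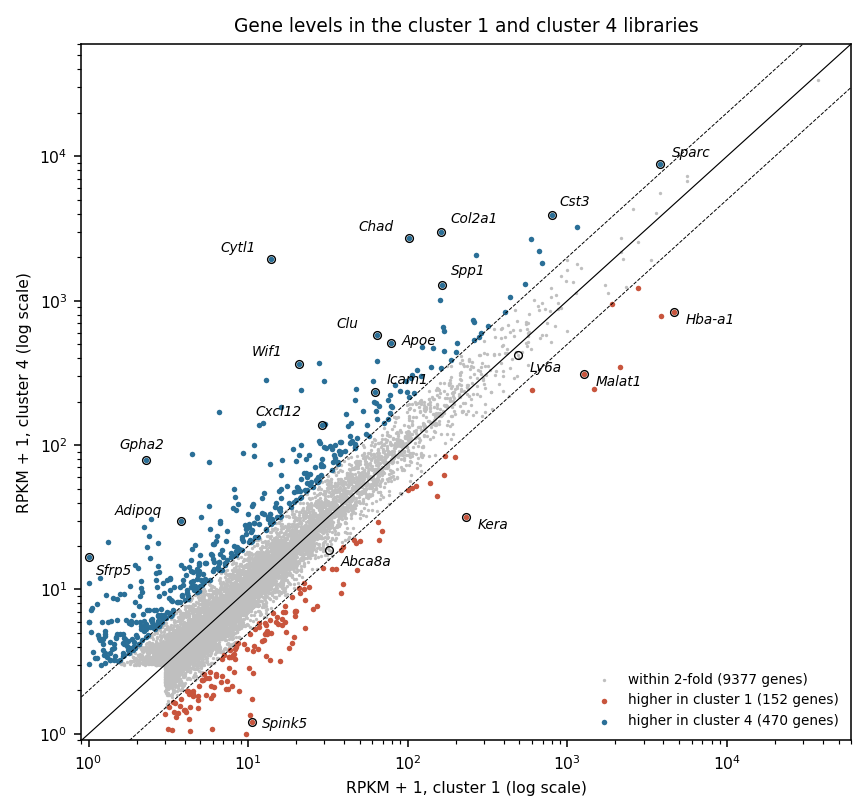
RPKM + 1 of each of the 9999 genes kept in cluster 1 (x axis, log scale) and cluster 4 (y axis, log scale), 1 library each. The solid line marks equal levels and the dashed lines 2-fold differences, and the 470 genes higher in cluster 4 reach further from the line (Cytl1, Gpha2, Chad) than the 152 genes higher in cluster 1 (Spink5, Kera).

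The differences were also placed among the 7 sorted libraries. Of the 470 genes higher in cluster 4 than in cluster 1, 196 had their highest level in cluster 4. Cluster 6 held the highest level of 131, cluster 7 of 60 and cluster 2 of 57. In 169 of them cluster 1 was the lowest of the 7. Of the 152 genes higher in cluster 1, 57 had their highest level in cluster 1, while cluster 5 was highest for 42 and cluster 3 for 41. Hence most genes that separate the pair had their highest level in another population. The counts of each gene list below can be read against the 1.52% of all genes kept that were higher in cluster 1 and the 4.7% that were higher in cluster 4.

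The 15 genes with the lowest log2 ratio, apart from unnamed and predicted genes and immunoglobulin segments, included Chad and Col2a1 of the cartilage and tendon list and Wif1, Sfrp5 and Frzb of the Wnt pathway list, and others that no list holds. Cytl1 (chr5:37735519-37739820), a secreted cytokine-like protein found in chondrocytes, led them with RPKM 12.9 (396 counts) in cluster 1 and 1932 (67985 counts) in cluster 4, a log2 ratio of -7.12 and a 149.5-fold difference (135 to 165). Among the sorted libraries its level was highest in cluster 4, with 1043 in cluster 6 and 299.5 in cluster 2. Gpha2, a glycoprotein hormone subunit, had 1.30 and 77.2 and was also highest in cluster 4. Chad, which encodes the cartilage matrix protein chondroadherin, had 100.3 and 2698. Chil1, a chitinase-like protein secreted by chondrocytes and macrophages, had 5.54 and 167, a 30.1-fold difference. Cnmd, which encodes the angiogenesis inhibitor chondromodulin, had 11.95 and 283. Ucma, a protein of the cartilage matrix, had 3.43 and 85.1. The remaining genes were Col2a1, Wif1, Sfrp5, R3hdml, Mia, Clec3a, Meltf, Frzb and Col9a2, with log2 ratios from -4.21 to -3.57. No count of Sfrp5, a secreted Wnt antagonist, was found in cluster 1, against 992 counts (RPKM 15.7) in cluster 4, which with a floor of 3 counts in the cluster 1 library is at least 288-fold higher in cluster 4. The exact 95% interval, which also counts the error of the cluster 4 value, has a lower limit of 234-fold.

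The 15 genes with the highest log2 ratio were of mixed kinds, and 5 of them encode haemoglobin chains or the haem enzyme Alas2 of red cells (Hba-a1 and Hba-a2 are near-identical, so that their reads may be split), among them the beta chain gene Hbb-bt (1464 and 243). Spink5, which encodes a serine protease inhibitor, had RPKM 9.60 (1333 counts) in cluster 1 and 0.213 (34 counts) in cluster 4. It reached at most 0.222 in any of the other 6 sorted libraries. By total count, without TMM factors, it had 11.5 in cluster 1 and 10.2 in the input marrow. Kera (chr10:97607205-97613688), which encodes the proteoglycan keratocan of cornea and tendon, had 232 and 30.7, a ratio of 7.56 (7.21 to 7.93), and was highest in cluster 1 of the 7 libraries. Mstn, the secreted inhibitor of muscle growth myostatin, had 14.8 and 2.19 and was nearly as high in cluster 7 (13.7). Tspan15, a tetraspanin, had 17.1 and 2.96, and Clic5, a chloride intracellular channel protein, had 7.81 and 0.972. Both were highest in cluster 3 (65.04 and 34.1). The nuclear non-coding RNA Malat1 had 1265 and 308. Car1, a carbonic anhydrase of red cells, had 120 counts in cluster 1 and 2 in cluster 4, so that its ratio was 68.9 with a counting interval from 18.7 to 575, and Car2 had RPKM 18.4 and 3.72. Of the others, LOC115485772 and LOC115487916 are loci without a described product, with 67 and 120 counts in cluster 1.

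**Figure D2:**
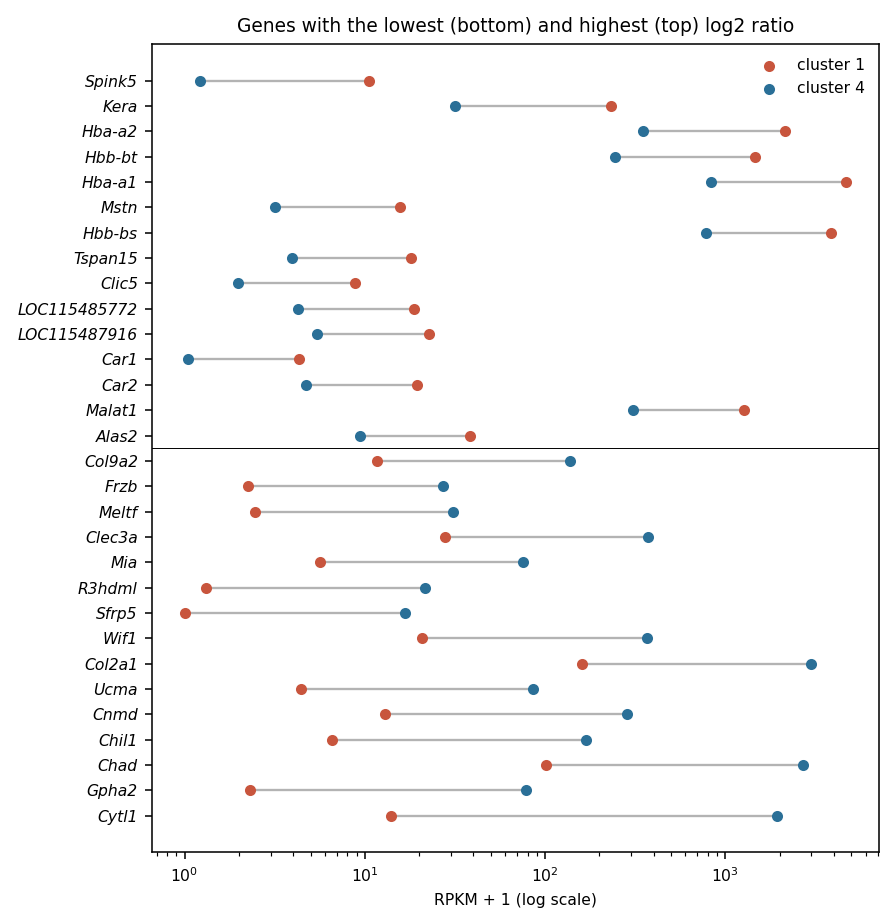
RPKM + 1 (x axis, log scale) in cluster 1 and cluster 4 of the 15 genes with the lowest and the 15 with the highest log2 ratio, with a line joining both libraries. The differences towards cluster 4 span up to a log2 ratio of -7.12 (Cytl1) and those towards cluster 1 up to 3.13 (Spink5).

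By absolute RPKM, the 5 largest differences towards cluster 4 were those of Sparc (3792 and 8783), which encodes the collagen-binding protein osteonectin, Cst3 (799 and 3891), the secreted protease inhibitor cystatin C, Col2a1, Chad and the neutrophil granule gene Ngp (1142 and 3222). Towards cluster 1 they were Hba-a1 (4678 and 829.7), mmu-mir-689-2 (37186 and 33859, a log2 ratio of only 0.14), Hbb-bs, Hba-a2 and Rn18s-rs5 (2755 and 1225), a gene related to 18S ribosomal RNA. The 3 haemoglobin genes are red cell genes.

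Promoter sequences are shown for Cytl1, which had the lowest log2 ratio, for Kera, the cartilage and tendon list member higher in cluster 1, for the niche gene Cxcl12, for Icam1, whose RNA followed the gate, and for Il6, an inflammatory gene higher in cluster 4. They run from 250 bases before to 50 bases after the RefSeq start, on the gene's strand, in GRCm38.p6, and capitals mark the TATA box TATAAA, the core ACAAAG that SOX and TCF proteins bind, or the kappa B consensus that NF-kappa B binds, searched on both strands.
Cytl1, chr5:37735269-37735568: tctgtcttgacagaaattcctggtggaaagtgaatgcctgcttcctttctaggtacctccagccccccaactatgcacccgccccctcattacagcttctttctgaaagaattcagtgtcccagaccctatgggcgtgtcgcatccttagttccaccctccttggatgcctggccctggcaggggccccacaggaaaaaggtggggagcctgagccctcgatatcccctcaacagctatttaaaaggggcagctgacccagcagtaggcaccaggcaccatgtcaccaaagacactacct
Cxcl12, chr6:117168285-117168584: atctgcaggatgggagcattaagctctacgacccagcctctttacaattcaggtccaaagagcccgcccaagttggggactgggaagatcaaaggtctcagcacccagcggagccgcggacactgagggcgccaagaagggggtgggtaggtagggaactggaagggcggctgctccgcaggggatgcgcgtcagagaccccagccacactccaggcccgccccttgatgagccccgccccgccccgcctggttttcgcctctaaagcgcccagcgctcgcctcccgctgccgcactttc
Icam1, chr9:21015690-21015989: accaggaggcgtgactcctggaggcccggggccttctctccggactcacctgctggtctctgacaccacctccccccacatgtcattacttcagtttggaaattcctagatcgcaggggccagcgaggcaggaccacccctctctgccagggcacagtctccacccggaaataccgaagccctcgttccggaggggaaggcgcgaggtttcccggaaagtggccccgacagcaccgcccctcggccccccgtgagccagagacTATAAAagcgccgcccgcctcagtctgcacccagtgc
Il6, chr5:30012864-30013163: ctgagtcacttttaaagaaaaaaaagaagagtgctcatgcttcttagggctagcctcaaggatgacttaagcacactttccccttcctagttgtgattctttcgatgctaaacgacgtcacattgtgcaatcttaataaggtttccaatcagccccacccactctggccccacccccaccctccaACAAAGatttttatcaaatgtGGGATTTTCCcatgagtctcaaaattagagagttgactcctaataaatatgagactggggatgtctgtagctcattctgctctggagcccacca
Kera, chr10:97606955-97607254: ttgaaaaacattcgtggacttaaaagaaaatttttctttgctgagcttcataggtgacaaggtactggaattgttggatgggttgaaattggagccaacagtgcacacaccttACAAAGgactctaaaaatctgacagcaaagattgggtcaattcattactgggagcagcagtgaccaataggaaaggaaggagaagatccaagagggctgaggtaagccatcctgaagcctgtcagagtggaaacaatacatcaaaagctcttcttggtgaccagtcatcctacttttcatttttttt
Cytl1 and Cxcl12 held none of these letters in the window, Icam1 held TATAAA, Kera held ACAAAG, and the cytokine gene Il6 held ACAAAG and the kappa B consensus. Windows were found for 345 of the genes higher in cluster 4 and 77 of those higher in cluster 1. The kappa B consensus was present in 11.3% of the former, 5.19% of the latter, 6.51% of the 7585 kept genes with a window and 5.14% of all 27025 genes with one. ACAAAG was present in 15.1% and 16.9% of them, against 15.5% of the kept genes. TATAAA was present in 17.4% and 20.8%, against 9.29% of the kept genes. By list, the kappa B consensus was in 3 of 7 cartilage and tendon genes higher in cluster 4 with a window, and in 1 of 3 cytokine and receptor genes. It was in 0 of 5 complement genes and 0 of 10 Wnt pathway genes. Il6, the only gene shown above that held it, does not stand for all genes higher in cluster 4. Such matches describe the letters of the window and were not tested as sites.

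The reticular niche genes were on the side of cluster 4. Of 17 kept members, 10 (58.8%) were higher in cluster 4, against 4.7% of all genes kept, and none in cluster 1, with a median log2 ratio of -1.06 against -0.04 for all genes kept. Besides Cxcl12 and Adipoq, these were Lepr, the leptin receptor (2.92 and 10.7), the adhesion gene Vcam1 (11.8 and 25.4), Hp, which encodes haptoglobin (62.3 and 194), the growth factor Gas6 (119.9 and 300.5), the BMP antagonist Grem1 (1.22 and 4.12), Esm1, Nt5e and Cdh11. Of the 10, 6 had their highest level of all 7 libraries in cluster 4 and 3 in cluster 7, Lepr among the latter. Cxcl12 and Adipoq, whose levels were known when the pair was chosen, are part of the 10, of the 6 and of the median. These values were therefore in part fixed by that choice. The list did not move as a whole. Kitl, the other main factor that stem cells receive from reticular cells, had 4.47 and 4.64. Csf1, the macrophage growth factor, had 29.9 and 34.4, and Pdgfrb had 37.8 and 44.4. The transcription factor gene Ebf1 had 11.9 and 8.62 and Foxc1 had 12.02 and 22.5.

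In the adipocyte lineage list, 5 of 14 kept members were higher in cluster 4 and 1 in cluster 1. The 5 include Adipoq, whose place among them was fixed, as its level was known when the pair was chosen. Apoe, which encodes the lipid carrier apolipoprotein E, had 76.97 in cluster 1 and 504 in cluster 4 (6.55-fold, 6.36 to 6.75) and was highest in cluster 4 of the 7 libraries. The lipase gene Lpl had 12.3 and 30.7, the triglyceride synthesis gene Dgat2 9.95 and 27.8, and angiotensinogen (Agt) 12.3 and 29.98. The adipogenic factors Cebpb (380.2 and 633) and Cebpd (112 and 193) were within 2-fold, as was Cebpa. Cd36, a fatty acid receptor also found on endothelium, was the member higher in cluster 1 (4.15 and 1.36), and Fabp4, also shared with endothelium, had 9.64 and 5.02. Both peaked in cluster 5.

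Cartilage matrix genes were on the side of cluster 4. Of 19 kept cartilage and tendon genes, 11 were higher in cluster 4 and 1 (Kera) in cluster 1, with a median log2 ratio of -1.28. Col2a1 (chr15:97975602-98004695), the main collagen of cartilage, had RPKM 159.9 in cluster 1 and 2976 in cluster 4 (18.6-fold, 18.4 to 18.8). The aggrecan gene Acan had 7.12 and 48.5, Col9a1 9.94 and 99.8, and Matn3, which encodes the cartilage protein matrilin 3, 8.31 and 86.97. Comp, a matrix protein of cartilage and tendon, had 267 and 2083, and Cilp2 had 28.8 and 278. Col10a1, the collagen of hypertrophic chondrocytes, had 9.65 and 38.1, and the lubricin gene Prg4 of the joint surface had 433 and 1055. The transcription factor Sox9, which drives many of these genes, had 45.7 and 94.8. However, cluster 4 was not the population richest in these RNAs. Of the 11 genes, 8 were highest in cluster 6, and only Cilp2 in cluster 4, with Col2a1 at 12621 in cluster 6 and 8042 in cluster 2.

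Other members of the same list were within 2-fold. Scx, the transcription factor of tendon progenitors, had 34.4 in cluster 1 and 32.7 in cluster 4, Tnmd, which encodes tenomodulin, 191 and 202, and Thbs4 344 and 421. The tendon transcription factor Mkx had 8.42 and 4.67. Scx, Mkx and Kera were all at their highest in cluster 1 of the 7 libraries, and the next highest level was 32.8 for Scx and 6.88 for Mkx, both in cluster 7.

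Of 18 kept osteoblast lineage genes, 10 were higher in cluster 4 and none in cluster 1, with a median log2 ratio of -1.25. The transcription factors Runx2 (1.71 and 5.59) and Dlx5 (1.07 and 6.72), the phosphatase gene Alpl (22.1 and 78.8) and the bone matrix genes Spp1 (162 and 1283), Ibsp (164 and 661), Sparc and Dmp1 (2.93 and 9.72) were among them. Tnfrsf11b, which encodes the osteoclast inhibitor osteoprotegerin, had 11.5 and 45.4, and Pth1r, the receptor for parathyroid hormone, had 18.2 and 46.5. Of the 10, 8 peaked in cluster 6. The osteocalcin genes were within 2-fold, with 212 and 186 for Bglap and 167 and 189 for Bglap2, near-identical neighbours whose reads may have been split between them. Col1a1 had 3319.7 in cluster 1 and 1917 in cluster 4 and Col1a2 had 2245 and 1952, both within 2-fold.

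**Figure D3:**
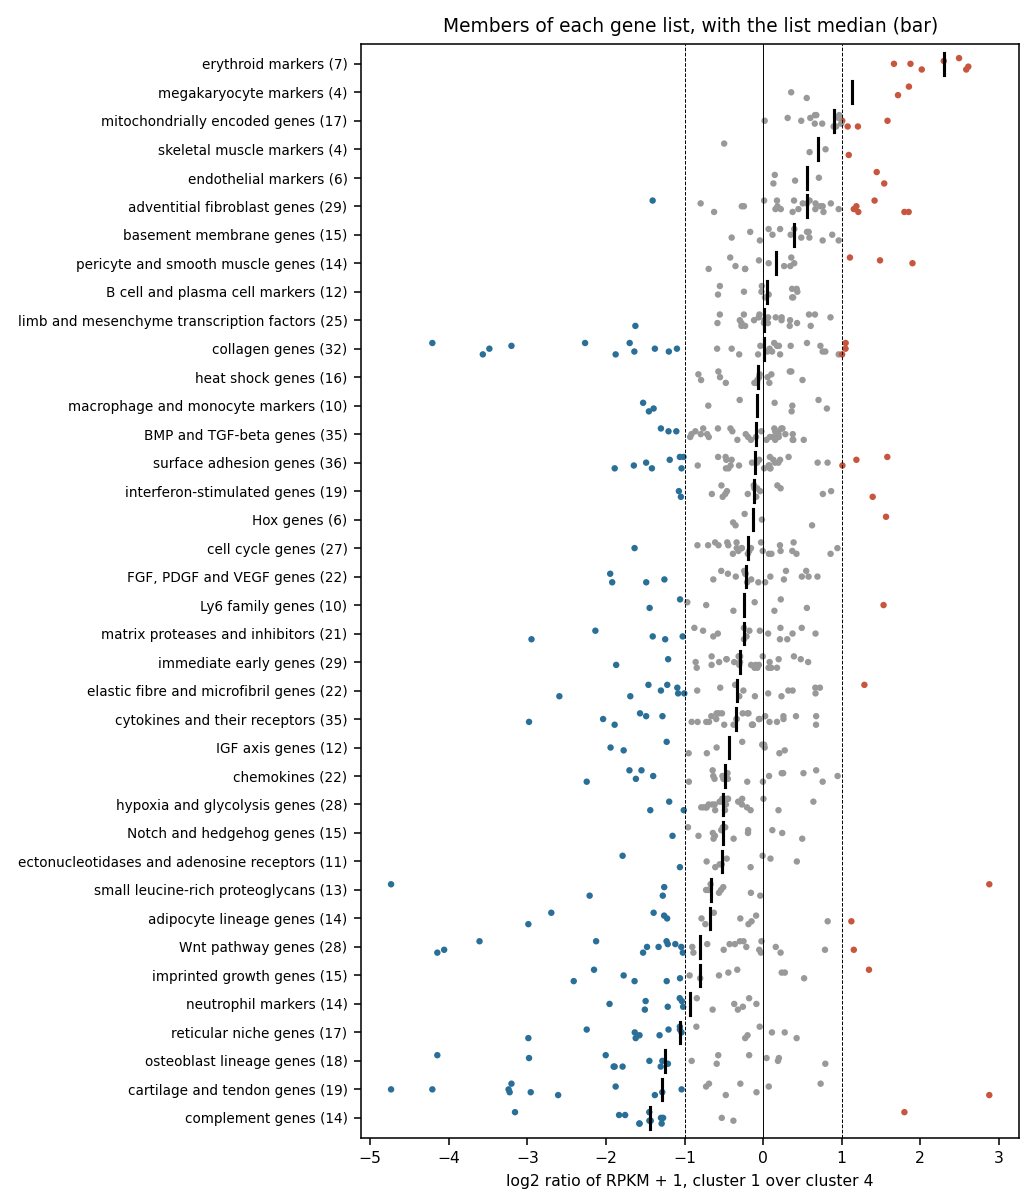
Log2 ratio of RPKM + 1, cluster 1 over cluster 4 (x axis), of each kept member of the gene lists with at least 4 kept members (number in brackets). Points are genes, black bars list medians and dashed lines 2-fold differences. The reticular niche, adipocyte lineage and chemokine lists hold Cxcl12 or Adipoq, whose levels were known when the pair was chosen. The adventitial fibroblast, surface adhesion and Ly6 family lists hold genes of proteins used in the sorts. The medians of the complement (-1.44), cartilage and tendon (-1.28), osteoblast (-1.25) and reticular niche (-1.06) lists lie past 2-fold on the side of cluster 4 (the last at -0.85, within 2-fold, by total count), and those of the erythroid (2.30) and megakaryocyte (1.14) markers on the side of cluster 1.

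Across all 32 kept collagen genes the median log2 ratio was 0.01, although 11 were higher in cluster 4 and 3 in cluster 1. Those higher in cluster 4 comprised the cartilage collagens Col2a1, Col9a1, Col9a2, Col9a3 (20.4 and 238), Col10a1, Col11a1, Col11a2 (15.4 and 77.8) and Col27a1, together with Col8a1 (60.6 and 199), Col8a2 and Col12a1 (15.01 and 48.8). Those higher in cluster 1 were the basement membrane collagen Col18a1 (44.8 and 21.1), Col5a3 (99.7 and 47.7) and Col22a1 (7.47 and 3.22), a collagen of tissue junctions. Of the 11 collagen genes higher in cluster 4, cluster 6 held the peak of 5, cluster 2 of 3 and cluster 4 of 2. The fibrillar Col3a1 (2753 and 2543) and Col5a1 (237 and 243) and the microfibrillar Col6a1 (565 and 512) were near equal. None of the 15 kept genes of the basement membrane list, which does not hold Col18a1, was more than 2-fold apart, but their median was 0.40. Lamc1, a laminin chain, had 39.2 and 20.9, the linker gene Nid1 93.6 and 66.5, Col4a1 123 and 96.02, Col4a6 3.78 and 1.83, Lama4 10.5 and 6.63, and Col15a1 30.5 and 15.2.

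Of 22 kept elastic fibre and microfibril genes, 8 were higher in cluster 4, and 6 of these 8 peaked in cluster 4 among the 7 libraries. Elastin (Eln) had 37.2 in cluster 1 and 104 in cluster 4, Mfap4 62.7 and 384, the fibulin genes Fbln1 28.9 and 95.4 and Fbln5 14.8 and 35.7, and the elastic fibre protein gene Emilin1 35.3 and 75.8. The microfibril-associated genes Mfap2 (101 and 215) and Ltbp2 (9.53 and 24.9) were higher in cluster 4 as well. The fibrillins, which form the microfibril itself, were within 2-fold, with 55.1 and 34.3 for Fbn1 and 5.64 and 3.02 for Fbn2. Loxl2, a collagen cross-linking oxidase, was the member higher in cluster 1 (16.1 and 6.003). Among small leucine-rich proteoglycans, Chad, Omd (29.3 and 139), Ogn (76.9 and 185) and Epyc (3.12 and 8.99) were higher in cluster 4, and Kera in cluster 1. Of the former, Ogn peaked in cluster 7 and the others in cluster 6. The abundant Dcn (3789.9 and 5594) and Lum (867 and 966) were within 2-fold.

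Of 21 kept matrix proteases and inhibitors, 5 (23.8%) were higher in cluster 4, against 4.7% of all genes kept, and none in cluster 1. Mmp3, which encodes stromelysin, had 46.01 and 205, and the inhibitors Timp1 and Timp3 had 167 and 445 and 19.2 and 46.9. Mmp9, a gelatinase that neutrophils also carry, had 9.82 and 82.5 and peaked in cluster 7. The collagenase gene Mmp13 (283 and 327) and the membrane protease gene Mmp14 (125 and 129) differed little.

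Complement genes had the lowest median log2 ratio of the lists with at least 4 kept members, -1.44. Of 14 kept, 11 were higher in cluster 4, 7 of which peaked in cluster 4. Clu, which encodes clusterin, a chaperone and complement inhibitor, had 63.5 in cluster 1 and 575 in cluster 4 (9.05-fold, 8.82 to 9.29). Serping1, the inhibitor of the C1 proteases, had 260.03 and 711. The components C3 (25.2 and 69.5), C4b (23.1 and 84.8), C2 (3.91 and 12.4), Cfb (5.15 and 19.8) and C1ra (36.1 and 89.8) were higher in cluster 4 too. C5ar1 and Cfp, which are also expressed by neutrophils and monocytes, were also higher (6.24 and 20.5, and 8.10 and 21.4) and peaked in cluster 7. The surface regulator Cd55, also an adventitial fibroblast gene, was the single member higher in cluster 1 (24.5 and 6.32).

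Of 28 kept members of the Wnt pathway list, 12 were higher in cluster 4 and 1 in cluster 1. Among the 12 were the secreted inhibitors Wif1 (19.7 and 365), Sfrp5, Frzb (1.24 and 26.3), Sfrp2 (104 and 292), Dkk2 (3.79 and 12.8) and Notum (1.66 and 10.6), and the intracellular inhibitors Nkd1 and Nkd2. The ligands Wnt4, Wnt5b and Wnt16 and the agonist Rspo3 completed them at RPKM 2.93, 7.33, 2.44 and 4.29 in cluster 4. Sfrp4, the most abundant antagonist, had 328 and 333, and Dkk3 had 64.2 and 57.3. The receptor genes Fzd1, Fzd2, Fzd4, Fzd7, Fzd8 and Lrp6 were all within 2-fold, with log2 ratios from -0.50 to 0.22. Of the 12 genes, 6 peaked in cluster 4 itself, whereas cluster 6 held the peak of 4 and cluster 2 that of 2. Wnt2 was the ligand higher in cluster 1 (6.62 and 2.42).

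Among 22 kept chemokine genes, 5 were higher in cluster 4, and all 5 peaked there. These were Cxcl12, Cxcl14 (51.6 and 170.1), the membrane-bound Cx3cl1 (4.96 and 16.4), and the lymphoid chemokines Ccl19 (3.10 and 11.6) and Cxcl13 (0.3 and 2.43). The place of Cxcl12 among the 5 was fixed, as its level was known when the pair was chosen. The inflammatory chemokines were abundant in both, with Cxcl1 at 572 and 812, Ccl7 at 521 and 437 and Ccl2 at 332 and 232. The scavenging receptors Ackr3 (74.8 and 43.8), which binds Cxcl12, and Ackr4 (11.5 and 5.49) were within 2-fold with more RNA in cluster 1. Of 35 kept cytokines and receptors, 6 were higher in cluster 4. Il6 had 65.3 and 185, Il11, an IL-6 family member, 3.48 and 12.3, and Angptl4, an inhibitor of lipoprotein lipase, 19.7 and 83.9, and the others were Osm, Tnfrsf11b and Spp1.

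Of 12 kept IGF axis genes, the ligand Igf2 (5.04 and 19.7) and the binding proteins Igfbp3 (26.7 and 105) and Igfbp4 (97.8 and 230.3) were higher in cluster 4. Igfbp7, the most abundant member, had 997 and 1923, within 2-fold, and peaked in cluster 4. Igf1 (30.9 and 37.4) and Igfbp6 (1137 and 1127) were near equal. Of 35 BMP and TGF-beta genes, 3 (8.57%) were higher in cluster 4, against 4.7% of all genes kept, namely Gdf10 (54.6 and 136), Inhba (27.7 and 60.7) and Grem1. The most abundant of them was the BMP target Id3 (484 and 721), and the ligand gene Bmp7 had 1.58 and 3.91. Of 22 FGF, PDGF and VEGF genes, Fgfr2 (5.52 and 14.6), Fgfr3 (1.70 and 9.38), which cartilage expresses, Fgf21 and Pdgfrl were higher in cluster 4. Hhip, a hedgehog target and inhibitor, was the only one of 15 Notch and hedgehog genes past 2-fold (1.98 and 5.63). The hedgehog receptor and target Ptch1 (0.836 and 2.56), the target Gli1 (1.86 and 4.06), Notch2 (4.87 and 8.15) and Gas1 (213 and 304), the most abundant of the list, were within 2-fold with more RNA in cluster 4. Of 15 imprinted growth genes, 6 were higher in cluster 4, among them H19 (7.21 and 42.6), Dlk1 (1.16 and 8.62) and the cell cycle inhibitor Cdkn1c (29.8 and 94.8), and Meg3 was higher in cluster 1 (12.1 and 4.15). Cluster 2 held the peak of 3 of these 6, cluster 5 of 2 and cluster 4 of 1. Of 11 kept ectonucleotidases and adenosine receptors, Nt5e (7.36 and 16.4) and Alpl were higher in cluster 4, and both peaked in cluster 6. Entpd2, the most abundant, had 72.99 and 108, Enpp5 3.18 and 5.88 and the adenosine deaminase gene Ada 5.61 and 9.09.

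Some adventitial fibroblast genes were higher in cluster 1. Of 29 kept, these were 6 (20.7%), against 1.52% of all genes kept, while 1 was higher in cluster 4 and 22 were within 2-fold. The median log2 ratio was 0.56, whereas the summed RPKM of the list was 4143 in cluster 1 and 4006 in cluster 4. That median is the value of Ly6c1, a gene for Ly-6C, and cluster 4 was sorted as Ly-6C negative. The median is therefore not independent of the gate. The surface peptidase Dpp4 had 6.42 in cluster 1 and 1.05 in cluster 4, Thy1, which encodes CD90, 12.004 and 4.71, the guidance factor Sema3c 23.03 and 9.37, and Efhd1 9.83 and 3.05. With Cd55 and Wnt2, these 6 genes all had their highest level in cluster 3, where Cd55 was at 109.9 and Dpp4 at 20.6. Cd34 (102 and 55.7), a surface sialomucin, Clec3b (171 and 103), which encodes tetranectin, and Col15a1 were within 2-fold. The abundant Dpt (299 and 264), Pi16 (25.02 and 22.3) and Has1 (726 and 876), a hyaluronan synthase, were near equal. Penk, which encodes the enkephalin precursor, was the member higher in cluster 4 (88.1 and 235).

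Of 14 pericyte and smooth muscle genes, 3 were higher in cluster 1. Rgs5, a G-protein regulator of pericytes, had 11.9 and 2.46, Higd1b 3.30 and 0.532, and the smooth muscle myosin gene Myh11 4.80 and 1.70. The contractile genes Acta2 (51.5 and 38.9) and Tagln (4.72 and 3.46) were within 2-fold, as were Myl9 (49.5 and 63.4), the most abundant of the list, and Abcc9 (1.54 and 3.11). Among 36 surface adhesion genes, Itgb3 (10.5 and 2.84), Thy1 and Cdh13 (21.4 and 10.1) were higher in cluster 1, and 8 were higher in cluster 4, among them Icam1, Vcam1, Cd200 (9.17 and 27.6), an inhibitory ligand for myeloid cells, and Sdc4 (82.6 and 261), a heparan sulphate proteoglycan. The most abundant, the tetraspanin gene Cd63, had 979.99 and 1356. Icam1 encodes CD54, by which cluster 4 was sorted, so that its place among the 8 is not independent of the gate. The Hox gene Hoxd13, which patterns the distal limb, had 5.75 and 1.28, and was the only one of 6 kept Hox genes past 2-fold. Hoxc10 had 9.89 and 11.8, Hoxd8 5.43 and 3.17, Hoxc9 2.01 and 2.93 and Hoxa10 4.59 and 6.12. Of 25 limb and mesenchyme transcription factors, Pitx1, a hindlimb factor, was the only one past 2-fold (1.18 and 5.73), a share of 4.0% that is near the 4.7% of all genes kept. Tbx3 (3.51 and 1.49), Tcf7l2 (6.61 and 3.82) and Nfia (8.09 and 4.97) were within 2-fold with more RNA in cluster 1, whereas Prrx2 (45.6 and 54.3), the most abundant, Prrx1 (10.9 and 8.40) and Twist1 (25.1 and 23.98) were near equal.

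Immediate early genes and heat shock genes, which often respond to cell isolation, were high in both libraries and few differed. Of 29 immediate early genes, 2 (6.90%) were higher in cluster 4, a share near the 4.7% of all genes kept, namely Ccn2, a connective tissue growth factor (169 and 619), and Fosl1 (33.96 and 79.8). Fos had 2162 and 2169, Egr1 567 and 596, and Jun 547 and 509, while Gadd45b (471 and 855) and Nr4a2 (106 and 191) had more RNA in cluster 4. None of 16 heat shock genes was past 2-fold. The most abundant, the chaperone gene Hspa8, had 436 and 606, and those with the largest ratios, Hspa5 (298 and 528), Dnajb1 (103 and 178), Dnaja1 (44.8 and 66.9) and Hspb1 (93.9 and 138), had more RNA in cluster 4, whereas Hspa1a had 93.02 and 89.4. Of 19 interferon-stimulated genes, Ifit1 and Gbp2 were higher in cluster 4 and Rsad2 in cluster 1 (6.57 and 1.88). Ifit2 had 2.97 and 1.18, and Ifitm3, the most abundant, 652 and 911. Of 28 hypoxia and glycolysis genes, 3 (10.7%) were higher in cluster 4, against 4.7% of all genes kept, namely Slc2a1, a glucose transporter (14.99 and 42.3), Slc16a3 and Egln3. The glycolytic genes Ldha (219 and 362) and Pkm (97.5 and 169) were within 2-fold. Among 27 cell cycle genes, Cdkn1c alone was past 2-fold, and Mki67, a marker of dividing cells, had 6.77 and 3.03. The cell cycle inhibitor genes Cdkn1a and Cdkn1b had 218 and 389 and 3.92 and 1.71.

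**Figure D4:**
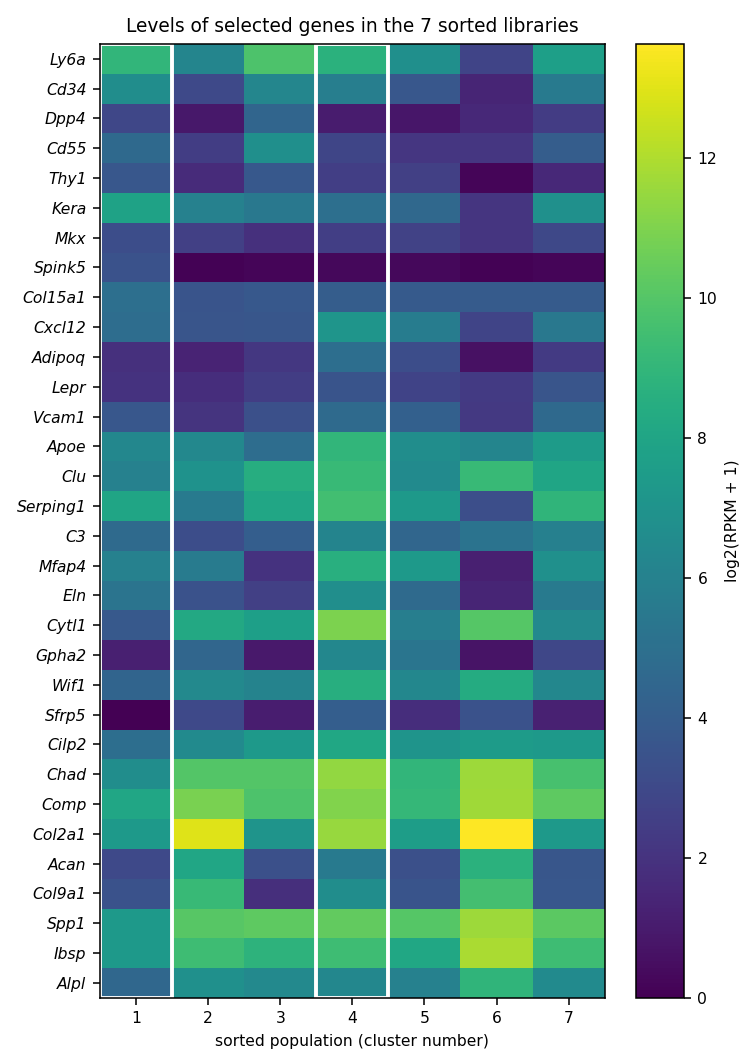
Levels of 32 genes, as log2(RPKM + 1), in the 7 sorted libraries (x axis), with cluster 1 and cluster 4 framed in white. Cxcl12, Adipoq, Apoe, Mfap4 and Cytl1 are highest in cluster 4, Kera and Spink5 in cluster 1, whereas the cartilage gene Col2a1 reaches 12621 RPKM in cluster 6 and the adventitial gene Cd55 109.9 in cluster 3.

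The markers of cells that the sort should have removed differed between the libraries too. All 7 kept erythroid markers of a list of 15 were higher in cluster 1, and their summed RPKM over the whole list was 12161 in cluster 1 and 2209.7 in cluster 4. Counts on haemoglobin genes made up 1.10% of cluster 1 and 0.171% of cluster 4, and all 7 markers were highest in cluster 5. The carbonic anhydrase genes Car1 and Car2, given above among the genes highest in cluster 1, were likewise highest in cluster 5 (39.6 and 126). The part of red cell RNA in these differences was not tested. Without haemoglobin, mitochondrial and ribosomal-like loci in the scaling, 154 genes were higher in cluster 1 and 493 in cluster 4.

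Neutrophil markers were abundant in both libraries. All 14 were kept, 7 were higher in cluster 4, and none was at 0 in either. Their summed RPKM was 12794 in cluster 1 and 18109.8 in cluster 4, or 1.12% and 1.59% of the counts. The most abundant, S100a9, had 5601 and 6695, and the granule genes Ngp, Ltf (122 and 478) and Lcn2 (96.95 and 277) were those with the lowest log2 ratios, followed by the elastase gene Elane (78.6 and 184). Of 16 macrophage and monocyte markers, 10 were kept and 3 (Lyz2, Cd14 and Cd68) were higher in cluster 4, with a summed RPKM of 827 and 2163, most of it from Lyz2 (691 and 1818). The macrophage complement gene C1qc had 2.34 and 0.902. Each of these myeloid genes that was higher in cluster 4 peaked in cluster 7 or cluster 6, and Hp, Mmp9, C5ar1, Cfp and Osm, given above with other lists, are expressed by myeloid cells as well. So is Plaur (62.5 and 172), the urokinase receptor gene of the Ly6 family list, of which Plaur and the neutrophil gene Ly6g (18.4 and 39.4) were higher in cluster 4, and Gpihbp1 (2.13 and 0.0823), an endothelial anchor of lipoprotein lipase, was higher in cluster 1. The part of myeloid RNA in them was not tested, and in bulk RNA a larger share of such cells cannot be told apart from more RNA per cell. When genes with a higher RPKM by total count in the input marrow than in both libraries were left out, a check added after the data were seen, 124 genes higher in cluster 1 and 386 higher in cluster 4 remained of 5101 genes. A gene raised in either library could stay through that difference itself. These numbers therefore do not measure the part of myeloid or red cell RNA.

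**Figure D5:**
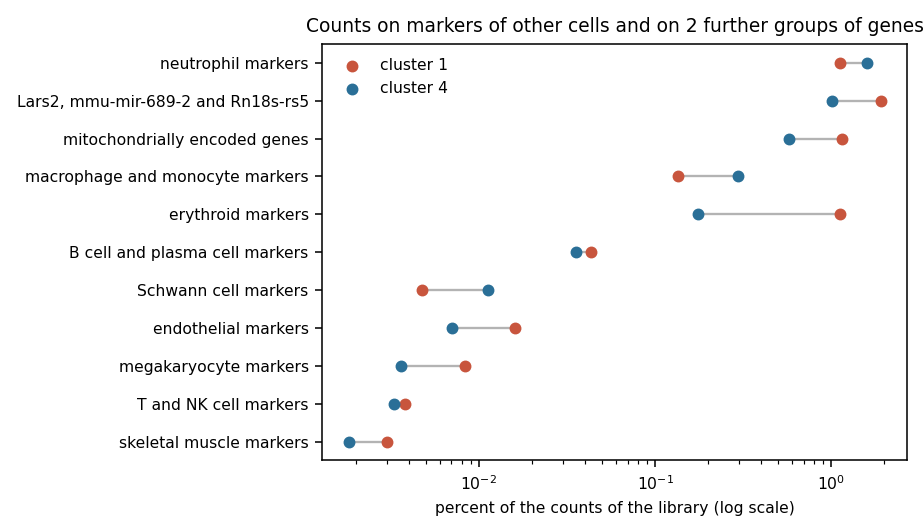
Share of the counts of each library (x axis, percent, log scale) on markers of other cell types, on mitochondrially encoded genes and on 3 loci with ribosomal or abundant short-RNA reads. The erythroid share is 1.12% in cluster 1 and 0.174% in cluster 4, and the neutrophil share 1.12% and 1.59%.

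Other cell types left weaker traces. Of 16 endothelial markers, 6 were kept and 2 were higher in cluster 1, Tek (4.43 and 0.866) and Esam (4.83 and 1.14), with a summed RPKM of 35.5 and 21.1 and Plvap as the most abundant (12.3 and 10.997), while Egfl7 had 2.54 and 1.17. Of 10 megakaryocyte markers, 4 were kept and Pf4 (38.5 and 9.91) and Ppbp (4.84 and 0.776) were higher in cluster 1, with sums of 53.8 and 19.3, and Gp1bb (3.94 and 2.36) and Itga2b (4.77 and 3.51) were within 2-fold. None of 12 kept B cell and plasma cell markers of 17 was past 2-fold (sums 253 and 266, Igkc the most abundant), and of 15 T and NK cell markers only Nkg7 was kept. The B lineage genes Cd79a and Dntt had 13.9 and 20.9 and 3.53 and 2.37, and the plasma cell gene Jchain had 1.18 and 2.24. Of 12 Schwann cell markers, S100b (7.69 and 37.9) and Ncmap (1.41 and 15.6) were kept and higher in cluster 4, and S100b is also expressed by chondrocytes. Skeletal muscle markers summed to 14.04 and 8.51 over 15 genes, of which 4 were kept and Acta1 was higher in cluster 1 (3.21 and 0.977). The others were the fast muscle genes Tnni2 (2.14 and 3.43), Mylpf (2.40 and 0.961) and Tnnt3 (3.14 and 1.74). The part of these cells in the vessel-associated genes Rgs5, Higd1b, Cd36 and Fabp4 was not tested.

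Signs of RNA composition also differed. Mitochondrially encoded genes held 1.15% of the counts of cluster 1 and 0.574% of those of cluster 4, and 17 kept members had a median log2 ratio of 0.90, with 4 past 2-fold. These were mt-Atp8 (65.1 and 21.04), mt-Tp (48.9 and 20.6), mt-Atp6 (106 and 49.6) and mt-Nd1 (1899 and 944), and mt-Cytb, the most abundant, had 2325 and 1247. Lars2, mmu-mir-689-2 and Rn18s-rs5 together held 1.91% and 1.01%. The 10 genes with most counts held 17.3% and 16.8%. When the genes were divided by exon length into 5 equal parts, the shares higher in cluster 4 were 7.0% among the 2000 shortest and 2.1% among the 2000 longest, and those higher in cluster 1 were 3.15% and 0.85%, while the median log2 ratio was -0.05 and 0.06. By level, 8.9% of the 2000 most abundant genes were higher in cluster 4, against 4.2% of the 2000 least abundant, and 1.5% and 1.9% were higher in cluster 1.

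At the 2-fold threshold, Arglu1 (10.6 and 4.82) lay just past it on the side of cluster 1 and Tspan2 (11.97 and 5.49) just short of it. On the side of cluster 4, Flywch2 (2.28 and 5.58) lay just past it and Dusp14 (16.4 and 33.7) just short of it.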

How the data were processed

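RNA-seq counts of 7 sorted populations and of input cells were used, with 1 library each (12833648 to 33238133 counts in the sorted libraries). For each library the authors deposited unnormalized read counts, 1 per Ensembl gene, with exon positions and the exon length (in bases) of each of 49315 genes. Per the submitters' processing notes, Partek 2.2 and TopHat2 were used with mm9, whereas 96.2% of 23331 gene symbols in the files started within 10 kb of their RefSeq GRCm38.p6 position, so that GRCm38 is taken as their build. The counting tool, its use of strand and its treatment of shared reads are not given in the sources used here.

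RPKM was computed from the counts and exon length, with library totals scaled by TMM factors (edgeR) over the 7 sorted libraries (1.20 for cluster 1 and 1.02 for cluster 4). edgeR and DESeq2 gave scaling factors only, and no test was run. Genes with RPKM above 2 and 50 or more counts in the same library entered, with a pseudocount of 1 and a threshold of 2-fold. Ratio intervals are exact (Clopper-Pearson) and cover counting error only, as does the floor of 3 counts. Symbols were assigned to 37786 genes.

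Members and the 41 gene lists were chosen with earlier results of these data known. Of 864 list entries, 3 (Hes4, Mirg and Ahsp) were not matched. The genes named are the markers and sort markers, the 15 highest and 15 lowest log2 ratios (unnamed genes, Gm, Rik and -ps symbols and antigen receptor segments were only counted: 30 higher in cluster 1 and 28 in cluster 4), the 5 largest RPKM differences in each direction, and in each list the most abundant member and those with the largest ratios, with other members to say what a list holds. A gene that this rule names is not reported here. Promoters came from RefSeq (GRCm38.p6). Alternatives comprised other scaling, pseudocount and filters. The calculation was tested on simulated data. Software comprised R 4.3.3 with edgeR 4.0.16 and DESeq2 1.42.0, and Python 3.11.15 with scipy 1.17.1, pandas 2.3.3, numpy 2.4.6 and matplotlib 3.10.9.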

Additional observations from a re-analysis of the deposited data

How the results depend on the processing

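No paired analysis was possible because cluster 1 and cluster 4 were each sequenced as 1 library. The number of genes higher in cluster 1 (152) was 272 with the total count alone, 259 with a pseudocount of 0.1, 241 without the count minimum, 85 with the filter applied in both libraries and 21 at 4-fold, and the number higher in cluster 4 (470) was 89 at 4-fold. The former ranged from 117 to 167 under the other settings, which comprised TMM over the pair, DESeq2 size factors, scaling without ribosomal-like, mitochondrial and haemoglobin loci, no RPKM filter, an interval also past 2-fold and omission of genes higher in the input cells (117 and 382, and 124 and 386 with the total count in all 3 libraries). At 2-fold the latter ranged from 316, with the filter applied in both libraries, to 614, with a pseudocount of 0.1. All 152 genes were among the 272. The share of the differences that favoured cluster 1 was 24.4%, and 44.7% with the total count. Among the genes named by rule, the sign of the small log2 ratios of Cd24a, Ptprc, Timp2, Sfrp4 and Nkg7 changed under the total count, and that of Entpd1 and Fos also under TMM over the pair and DESeq2 size factors. The sign of the medians of 9 lists changed under the total count, among them sort markers (0.13), BMP and TGF-beta genes (0.12) and heat shock genes (0.16), and the median of the reticular niche genes moved from -1.06 to -0.85. Without a second library of either population, no value could be set against the spread between sorts.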

Other observations

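Outside the gene lists, the following were chosen after their values were seen, from the 196 genes that were higher in cluster 4 than in cluster 1 and at their highest in cluster 4 of the 7 sorted libraries. Gpx3, a secreted glutathione peroxidase, had RPKM 589.6 in cluster 1 and 2659 in cluster 4. Mgp, an inhibitor of calcification in cartilage and vessels, had 661 and 2211. The lipid-binding proteins Apod and Rbp4 had 139 and 348 and 18.1 and 93.4. The lysosomal protease genes Ctsl (199 and 438) and Ctsd (108 and 227), the haem oxygenase gene Hmox1 (59.1 and 279), which is induced by oxidative stress, and the autophagy receptor gene Sqstm1 (287 and 592) were also among them.

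Of the 57 genes higher in cluster 1 and at their highest there, some were extracellular matrix and membrane genes, again chosen after their values were seen. Spon2, a matrix protein of the spondin family, had 195 in cluster 1 and 81.8 in cluster 4, Matn2, which encodes matrilin 2, 171 and 82.7, and Egfl6 32.5 and 12.8. The caveola genes Cav2 (21.8 and 7.43) and Cavin2 (12.1 and 3.95), the mesodermal transcription factor gene Meox1 (17.8 and 7.92) and the protease gene Adamts8 (16.4 and 4.08) lay on the same side. Ackr1, a chemokine receptor of venules and red cells, had 9.64 and 2.73.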
